A study of Mus musculus with 8 samples.

Results

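The genes of V(D)J recombination and of the end joining that completes it were described in mouse haematopoietic progenitors sorted by the level of a histidine decarboxylase reporter. The members and the gene lists below were chosen by name with earlier results of these libraries known. Their counts of called genes are therefore not independent of those results. The members comprised 10 of the 23284 genes in the count table. Of these, 3 are largely restricted to developing lymphocytes (Rag1, Rag2 and Dntt), and 7 belong to the end-joining machinery that most cells carry (Xrcc4, Xrcc5, Xrcc6, Prkdc, Lig4, Dclre1c and Nhej1). All 10 were in the table and all 10 passed the filter on low counts.

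V(D)J recombination assembles the variable exons of immunoglobulin and T cell receptor genes from separate gene segments. The RAG1 and RAG2 proteins together cut the DNA next to the segments and leave hairpin ends on the coding side. Ku, a dimer of the XRCC6 and XRCC5 proteins, binds the broken ends and recruits the kinase PRKDC, the nuclease Artemis (Dclre1c) opens the hairpins, and ligase IV with XRCC4 and XLF (Nhej1) seals the joint. Terminal transferase (Dntt) adds bases without a template before sealing, and in the bone marrow its transcript and those of the RAG genes mark progenitors with lymphoid potential.

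RNA was sequenced from LSK cells, the lineage-negative fraction of bone marrow with Kit and Sca-1 on its surface, which holds stem cells and multipotent progenitors. The Hdc-GFPhi group (4 libraries) held cells with high reporter fluorescence and the Hdc-GFPlo group (4 libraries) held cells with low fluorescence, in each case from Hdc-GFP mice of the strain C57BL/6 with no treatment named in the labels. Hdc encodes histidine decarboxylase, the enzyme that makes histamine, and all 8 libraries came from mice that carry the reporter. Each library was made from 2000 sorted cells. The labels give no age and do not say whether a group's replicates were different animals. The p-values therefore speak of the spread among these libraries, which may be technical. The cell type label of Hdc-GFPhi replicate 4 reads GFP+ instead of GFPhi, and the Rag1 results that rest on this library are also given without it.

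Total counts were 21041170 to 22470121 in Hdc-GFPhi libraries and 16726179 to 23051277 in Hdc-GFPlo libraries, and 14856 to 15446 genes were detected per library. Hdc itself averaged 12.0 ± 2.12 CPM (reads of the gene per 1e6 counted reads, after scaling for library composition) in Hdc-GFPhi libraries and 12.1 ± 1.21 CPM in Hdc-GFPlo libraries (SD, n = 4 each), and the libraries of the sorted fractions overlapped; GFP reads were not analysed here. The genes behind the gate were present in all 8 libraries, with Ly6a, which encodes Sca-1, at a mean of 125 CPM in Hdc-GFPhi cells and 119 CPM in Hdc-GFPlo cells. Kit averaged 1460 ± 110 CPM in Hdc-GFPhi cells and 1195 ± 315 CPM in Hdc-GFPlo cells (SD, n = 4 each). The groups overlapped for Kit, which was not called (edgeR adjusted p 0.599). Of a list of 6 surface marker genes, of which only Kit and Ly6a stand for the gate itself, 1 (Cd48) was called. Cd48 was lower, at 161 CPM in Hdc-GFPhi cells and 264 CPM in Hdc-GFPlo cells (edgeR adjusted p 0.0228). Of 13300 genes tested with edgeR's quasi-likelihood test, 126 (0.947%) passed an adjusted p of 0.05 (Benjamini-Hochberg over all tested genes). These are the genes said below to have been called, or to have risen or fallen. The median log2 fold change of all tested genes was -0.00, and the middle 90% of them lay between -0.53 and 0.55.

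The sequences just upstream of the start of the 3 genes that fell, and of Xrcc6 from the end-joining members, are shown because the 3 genes fell together, while Xrcc6 was the end-joining member nearest to the threshold. Each run is the 250 bases before the RefSeq start on the gene's own strand (build GRCm38.p6), in lower case with every CG dinucleotide in capitals. The Rag1 window lies at chr2:101649533-101649782 on the minus strand and the Rag2 window at chr2:101624462-101624711 on the plus strand. The Dntt window lies at chr19:41029025-41029274 and the Xrcc6 window at chr15:82016119-82016368, both on the plus strand.
Rag1: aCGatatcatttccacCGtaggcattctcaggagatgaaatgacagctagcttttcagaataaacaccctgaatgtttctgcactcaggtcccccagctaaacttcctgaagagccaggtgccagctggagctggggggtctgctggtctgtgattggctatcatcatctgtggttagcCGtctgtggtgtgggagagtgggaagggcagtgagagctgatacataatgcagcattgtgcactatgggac
Rag2: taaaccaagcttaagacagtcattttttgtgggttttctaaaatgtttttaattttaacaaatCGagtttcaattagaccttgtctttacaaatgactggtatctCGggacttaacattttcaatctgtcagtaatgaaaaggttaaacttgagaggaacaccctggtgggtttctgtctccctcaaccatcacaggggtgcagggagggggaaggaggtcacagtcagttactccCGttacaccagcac
Dntt: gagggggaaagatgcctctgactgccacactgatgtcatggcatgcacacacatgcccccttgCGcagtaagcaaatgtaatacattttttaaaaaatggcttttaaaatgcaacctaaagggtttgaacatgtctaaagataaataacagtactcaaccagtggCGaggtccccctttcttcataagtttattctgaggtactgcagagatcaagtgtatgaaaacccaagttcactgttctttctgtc
Xrcc6: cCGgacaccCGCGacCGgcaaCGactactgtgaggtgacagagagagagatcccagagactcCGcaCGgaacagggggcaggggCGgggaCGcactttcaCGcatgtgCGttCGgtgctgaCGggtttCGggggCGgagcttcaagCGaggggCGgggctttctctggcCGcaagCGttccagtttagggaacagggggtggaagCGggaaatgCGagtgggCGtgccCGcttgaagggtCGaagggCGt
The Rag1 and Rag2 windows hold 3 CG dinucleotides each and the Dntt window holds 2, while the Xrcc6 window holds 25. Among 32851 RefSeq windows of the same length, the quartiles were 2, 6 and 16, so that 37.8% of windows held no more CG than those of Rag1 and Rag2 and 29.0% held no more than that of Dntt. The share was 90.4% for Xrcc6. RefSeq windows were matched for 9 of the 10 members, all but Prkdc. The other end-joining members were mixed: Xrcc4 held 26 and Lig4 held 28 and 27 in its pair of annotated windows, but Nhej1 held 9, Dclre1c held 8 and Xrcc5 held 5. The GC content was 50.8% for Rag1, 41.2% for Rag2, 41.6% for Dntt and 65.2% for Xrcc6, against a median of 52.4% over all windows.

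Short letter patterns chosen after these sequences had been seen were searched on both strands of the same windows. The TATA box letters TATAAA were in none of the Rag1, Rag2 and Dntt windows, and 12.4% of all windows hold them. The E-box pattern CANNTG, the form bound by E proteins such as Tcf3, occurred 3 times in Rag1, 1 time in Rag2 and 3 times in Dntt, and in 66.2% of all windows. The Rag1 window held 1 CCAAT (in 33.8% of all windows), 2 copies of TGTGGT, the Runx core (14.0%), and 1 TGGGAA, the Ikaros core (21.6%). Of the E-box and Runx matches in the Rag1 window, 1 pair overlapped. The Rag2 and Dntt windows held no match to the CCAAT box, Runx and Ikaros patterns, and neither the forkhead pattern TGTTTAC (3.17%) nor the Ets pattern CGGAAG (13.6%) was in the windows of Rag1, Rag2 or Dntt. A match describes letters in a window, not a bound site, and CANNTG, which reads alike on both strands, was counted once per position.

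The lymphoid-restricted members were lower in Hdc-GFPhi than in Hdc-GFPlo cells by 4.39- to 5.46-fold, while the log2 fold changes of the end-joining members lay between -0.40 and 0.27. Rag1, Rag2 and Dntt all fell, and in each the highest Hdc-GFPhi library lay below the lowest Hdc-GFPlo library. None of the 7 end-joining members was called. Thus 3 of the 10 members were called lower, against 0.707% of all tested genes, and 0 were called higher, against 0.241% of all tested genes. The groups did not overlap in 5 of the 10 members, with Hdc-GFPhi the lower in all 5, against 3.54% of all tested genes (6.92% with the groups apart in either direction). In bulk samples, fewer cells that carry a transcript and less of it per cell cannot be told apart.

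**Figure D1:**
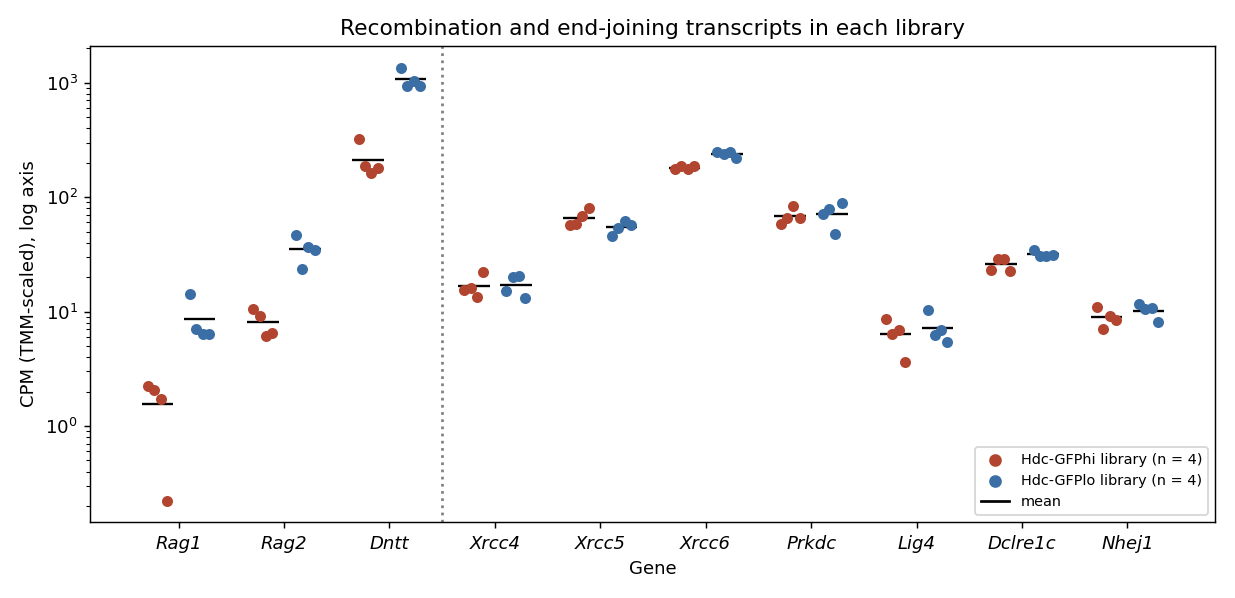
CPM on a log axis for each of the 10 members, with a point for every library (Hdc-GFPhi left of Hdc-GFPlo for each gene, n = 4 each) and a line at each mean. The 4 Hdc-GFPhi points of Rag1, Rag2 and Dntt all sit below the 4 Hdc-GFPlo points, while those of Xrcc4, Xrcc5, Prkdc, Lig4 and Nhej1 overlap between the groups.

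Rag1, the catalytic subunit of the recombinase, had 2.23, 2.05, 1.74 and 0.223 CPM in Hdc-GFPhi replicates 1 to 4, against 14.3, 7.01, 6.37 and 6.39 CPM in Hdc-GFPlo replicates 1 to 4. The groups did not overlap, but 1 library stood apart on each side: Hdc-GFPhi replicate 4 was far below its group and Hdc-GFPlo replicate 1 was the highest of all 8. These values rest on few reads, 50, 44, 39 and 5 counts in Hdc-GFPhi libraries and 324, 118, 115 and 126 counts in Hdc-GFPlo libraries. Dixon's criterion for outliers, used below, flagged Rag1 CPM in Hdc-GFPlo replicate 1 but not in Hdc-GFPhi replicate 4. The latter library had the fewest genes detected, 14856, against 15215 to 15446 in the other libraries. The 5 counts of Hdc-GFPhi replicate 4 have an exact Poisson 95% interval of 0.0724 to 0.520 CPM, which covers counting error only. The means were 1.56 ± 0.915 CPM in Hdc-GFPhi cells and 8.53 ± 3.88 CPM in Hdc-GFPlo cells (SD, n = 4 each), a log2 fold change of -2.45 ± 0.50 (SE) with a 95% interval of -3.54 to -1.36. Rag1 fell with an adjusted p of 0.0388 in edgeR's quasi-likelihood test. That call was lost in 7 of the 8 fits that left out 1 library, with an adjusted p of up to 0.172 (without Hdc-GFPlo replicate 1). It was kept without Hdc-GFPhi replicate 4 (log2 fold change -2.08, adjusted p 0.0169) and without that library and Hdc-GFPlo replicate 1 together (-1.71, adjusted p 0.0333).

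Rag2, the subunit that binds modified histone H3 and is needed for cutting, had 10.5, 9.10, 6.14 and 6.51 CPM in Hdc-GFPhi replicates 1 to 4, against 47.0, 23.8, 36.4 and 34.2 CPM in Hdc-GFPlo replicates 1 to 4. The highest Hdc-GFPhi library lay well below the lowest Hdc-GFPlo library, and no Hdc-GFPhi library stood apart as one did for Rag1. The means were 8.06 ± 2.08 CPM in Hdc-GFPhi cells and 35.3 ± 9.53 CPM in Hdc-GFPlo cells (SD, n = 4 each). Rag2 fell by 2.13 ± 0.23 (SE) on the log2 scale, with a 95% interval of -2.64 to -1.63 and an adjusted p of 0.000963 (edgeR).

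Dntt, which encodes terminal transferase, had by far the most reads of the 3, with 323, 187, 163 and 179 CPM in Hdc-GFPhi replicates 1 to 4, against 1355, 943, 1025 and 942 CPM in Hdc-GFPlo replicates 1 to 4. Its counts ran from 3661 to 7237 in Hdc-GFPhi libraries and from 15881 to 30618 in Hdc-GFPlo libraries, so counting error was small beside the spread between libraries. The transcript was lower but abundant in Hdc-GFPhi cells. The means were 213 ± 73.9 CPM in Hdc-GFPhi cells and 1066 ± 196 CPM in Hdc-GFPlo cells (SD, n = 4 each). Dntt fell by 2.32 ± 0.21 (SE) on the log2 scale, with a 95% interval of -2.78 to -1.87 and an adjusted p of 0.000373 (edgeR), a 5.01-fold difference. The calls of Rag2 and Dntt held under all 20 alternative settings of the test. In each group replicate 1 had the highest level of all 3 genes, and the summed level of the 3 was 171 to 335 CPM in Hdc-GFPhi libraries and 974 to 1416 CPM in Hdc-GFPlo libraries.

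The 7 end-joining members had a median log2 fold change of -0.18, against -0.00 over all tested genes. Of these, 6 were below 0 and 1 (Xrcc5) was above 0. Groups that did not overlap, with Hdc-GFPhi lower, were seen in 2 of the 7 (Xrcc6 and Dclre1c), against 3.54% of all tested genes. The summed level of the 7 was 350 to 388 CPM in Hdc-GFPhi libraries and 426 to 438 CPM in Hdc-GFPlo libraries, and Xrcc6 made up most of that gap.

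**Figure D2:**
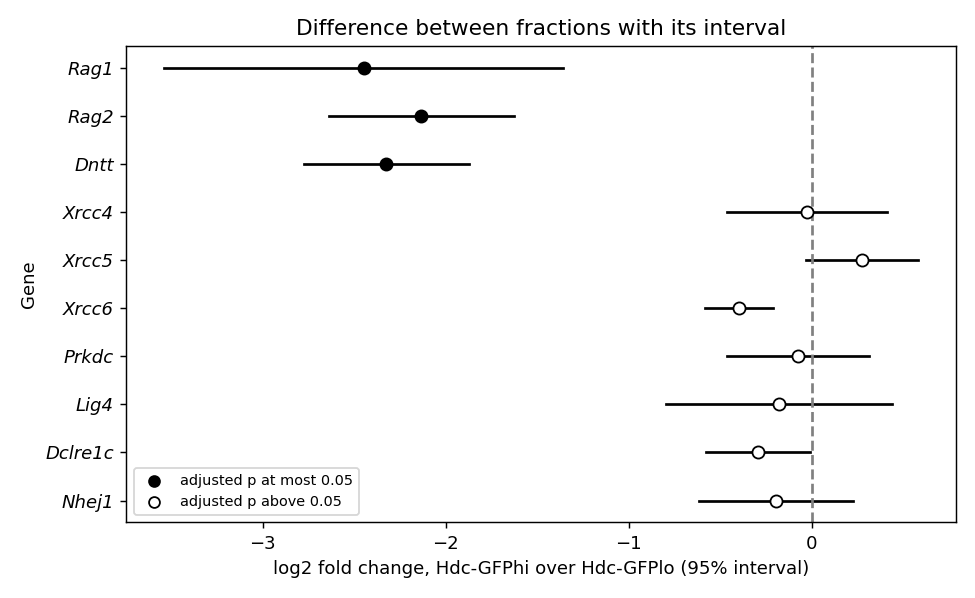
Log2 fold change of each member, Hdc-GFPhi over Hdc-GFPlo, with its 95% interval from edgeR's fit; filled points passed an adjusted p of 0.05. The intervals of Dntt, Rag2 and Rag1 lie wholly below -1, and those of the 7 end-joining members lie between -0.80 and 0.58.

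Xrcc6, which encodes the Ku70 subunit of Ku, had 176, 187, 177 and 186 CPM in Hdc-GFPhi replicates 1 to 4, against 248, 238, 248 and 222 CPM in Hdc-GFPlo replicates 1 to 4. All 4 Hdc-GFPhi libraries were below all 4 Hdc-GFPlo libraries, with little spread within either group. The means were 181 ± 5.62 CPM in Hdc-GFPhi cells and 239 ± 12.3 CPM in Hdc-GFPlo cells (SD, n = 4 each), a ratio of 0.759. The log2 fold change was -0.40 ± 0.09 (SE), with a 95% interval of -0.58 to -0.21, and the adjusted p of 0.0554 in edgeR's test just missed the threshold. It passed with the DESeq2 Wald test (adjusted p 0.000549), with limma voom (adjusted p 0.0207) and with a covariate for replicates 1 and 2 against 3 and 4 (edgeR adjusted p 0.0333).

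Xrcc5, which encodes Ku80, the other Ku subunit, had 57.3, 58.2, 68.2 and 80.5 CPM in Hdc-GFPhi replicates 1 to 4, against 45.5, 53.7, 62.3 and 57.1 CPM in Hdc-GFPlo replicates 1 to 4. The groups overlapped, with the highest pair of values in Hdc-GFPhi libraries. The log2 fold change of 0.27 ± 0.14 (SE; 95% interval -0.03 to 0.58) did not pass the test (edgeR adjusted p 0.537). Its interval lies above that of Xrcc6, and the difference between the subunits is tested below as a ratio within each library.

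Prkdc, the DNA-dependent protein kinase catalytic subunit, had 58.1, 65.4, 84.4 and 65.1 CPM in Hdc-GFPhi replicates 1 to 4, against 71.3, 78.4, 48.0 and 89.7 CPM in Hdc-GFPlo replicates 1 to 4. The groups overlapped widely, and the log2 fold change was -0.07 ± 0.18 (SE; 95% interval -0.46 to 0.31; edgeR adjusted p 0.936). Dclre1c, which encodes the hairpin-opening nuclease Artemis, had 23.3, 29.0, 28.8 and 22.8 CPM in Hdc-GFPhi replicates 1 to 4, against 34.7, 30.8, 30.6 and 31.4 CPM in Hdc-GFPlo replicates 1 to 4. These groups did not overlap, though their nearest values were close. The log2 fold change of -0.30 ± 0.13 (SE; 95% interval -0.58 to -0.01) had an unadjusted p of 0.0435 in edgeR's test, a level that 10.9% of all tested genes reached, and an adjusted p of 0.432.

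The ligation members overlapped between the fractions. Lig4, the ligase itself, averaged 6.39 ± 2.05 CPM in Hdc-GFPhi cells and 7.22 ± 2.18 CPM in Hdc-GFPlo cells (SD, n = 4 each; log2 fold change 95% interval -0.80 to 0.44, edgeR adjusted p 0.896). Its scaffold Xrcc4 averaged 16.8 ± 3.84 CPM in Hdc-GFPhi cells and 17.2 ± 3.65 CPM in Hdc-GFPlo cells (interval -0.46 to 0.41, edgeR adjusted p 0.984). Nhej1, which encodes the XLF protein that bridges ends with XRCC4, averaged 8.90 ± 1.59 CPM in Hdc-GFPhi cells and 10.2 ± 1.44 CPM in Hdc-GFPlo cells (interval -0.62 to 0.23, edgeR adjusted p 0.810). By library, Lig4 ran from 3.65 to 8.61 CPM in Hdc-GFPhi cells and from 5.43 to 10.4 CPM in Hdc-GFPlo libraries, and Xrcc4 from 13.5 to 22.4 CPM in Hdc-GFPhi cells and from 13.0 to 20.3 CPM in Hdc-GFPlo libraries. Nhej1 ran from 7.09 to 10.9 CPM in Hdc-GFPhi cells and from 8.16 to 11.5 CPM in Hdc-GFPlo libraries.

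Divided by exon length (GENCODE M21), the members spanned a wide range of levels in CPM per kilobase. In Hdc-GFPhi cells the order was Dntt (92.9 ± 32.2), Xrcc6 (40.5 ± 1.25), Xrcc5 (25.9 ± 4.22), Nhej1 (7.96 ± 1.42), Prkdc (5.18 ± 0.853), Xrcc4 (4.00 ± 0.910), Dclre1c (2.79 ± 0.366), Rag2 (2.35 ± 0.608), Lig4 (1.23 ± 0.395) and Rag1 (0.236 ± 0.138). The library ranges of Nhej1 and Prkdc, of Prkdc and Xrcc4, and of Dclre1c and Rag2 overlapped, so those neighbours were not separated beyond their spread. In Hdc-GFPlo cells Dntt (465 ± 85.6), Xrcc6 (53.3 ± 2.75) and Xrcc5 (21.4 ± 2.75) again led, and Rag2 (10.3 ± 2.78) came next, with a range that overlapped that of Nhej1 (9.12 ± 1.29). Rag1 (1.29 ± 0.588) was again last, here not separated from Lig4 (1.39 ± 0.418). Terminal transferase was thus the most abundant member per length in both fractions, also in the cells where it was lower, and Rag2 exceeded Rag1 per length in every library. How evenly reads covered each transcript was not examined.

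Ratios between transcripts that act in the same complex or step were compared within each library, where library scaling cancels. Of 8 ratios, 2 reached the smallest p that the exact two-sided permutation test over 70 assignments can give (0.0286), and both had an adjusted p of 0.114 over the 8, so none passed. The log2 ratio of Xrcc6 to Xrcc5 was 1.62, 1.68, 1.37 and 1.20 in Hdc-GFPhi replicates 1 to 4, against 2.44, 2.14, 1.99 and 1.95 in Hdc-GFPlo replicates 1 to 4. The groups did not overlap, and the ratio was lower in Hdc-GFPhi cells by a difference of -0.66 between the mean log2 ratios. The log2 ratio of Dntt to Polm, which encodes the template-using polymerase mu of the same family, was 6.26 ± 0.70 in Hdc-GFPhi and 8.38 ± 0.32 in Hdc-GFPlo cells (SD, n = 4 each), a difference of -2.12.

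**Figure D3:**
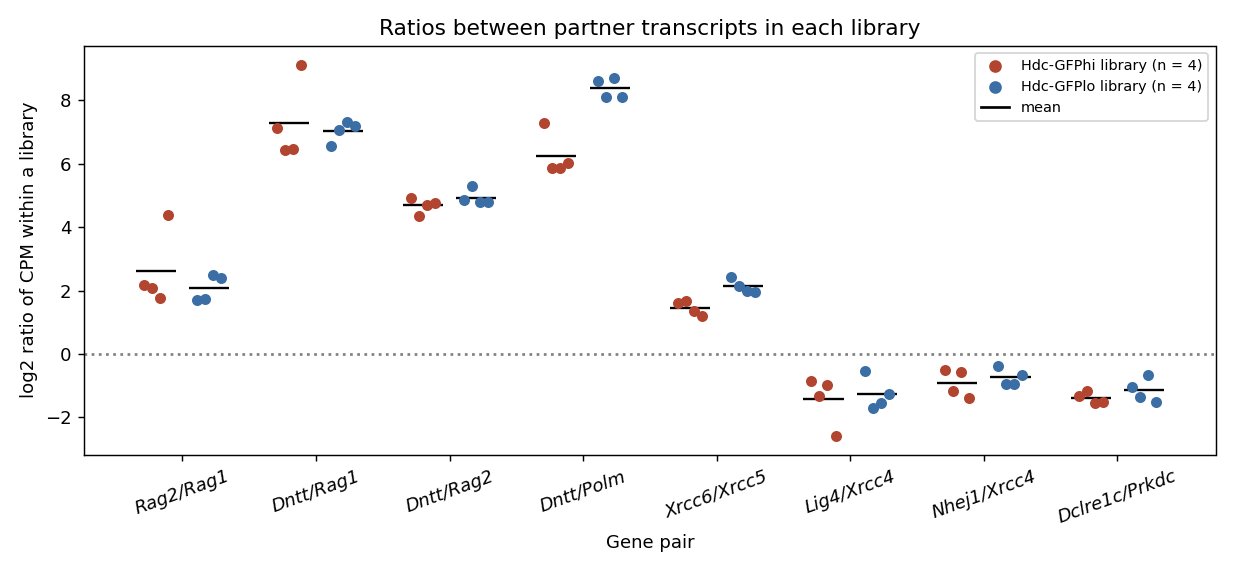
Log2 ratio of CPM between partner transcripts in each library, with a point per library (Hdc-GFPhi left of Hdc-GFPlo, n = 4 each) and a line at each mean. The groups separate for Dntt/Polm and Xrcc6/Xrcc5 and overlap for the ratios among Rag1, Rag2 and Dntt, where Hdc-GFPhi replicate 4 is the high point of both ratios to Rag1.

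The ratios among the lymphoid-restricted members overlapped between the groups. The log2 ratio of Dntt to Rag2 averaged 4.69 ± 0.25 in Hdc-GFPhi and 4.94 ± 0.25 in Hdc-GFPlo cells (SD, n = 4 each; exact permutation p 0.257, adjusted 0.629). That of Rag2 to Rag1 averaged 2.60 ± 1.19 in Hdc-GFPhi and 2.09 ± 0.42 in Hdc-GFPlo cells (exact permutation p 0.571, adjusted 0.762), and the wide spread in Hdc-GFPhi cells came from replicate 4, at 4.37. Without that library the difference of 0.52 became -0.07. The log2 ratio of Dntt to Rag1 averaged 7.29 ± 1.27 in Hdc-GFPhi and 7.02 ± 0.33 in Hdc-GFPlo cells (exact permutation p 0.943, the same after adjustment), and its difference of 0.27 became -0.35 without Hdc-GFPhi replicate 4. The ratios of Lig4 and Nhej1 to Xrcc4 and of Dclre1c to Prkdc differed between the mean values by -0.17, -0.17 and -0.25, with exact permutation p of 0.743, 0.486 and 0.314.

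Other genes of DNA end joining and repair were set beside the members, in lists of genes known for these roles. Of 15 tested genes of alternative and accessory end joining, 0 were called in either direction, against 0.947% of all tested genes. Their log2 fold changes had a median of 0.01 and a range of -0.25 to 0.20. Among them Parp1, a sensor of strand breaks, averaged 354 CPM in Hdc-GFPhi cells and 382 CPM in Hdc-GFPlo cells. The family X polymerases related to terminal transferase, which copy a template, were also not called: Polm averaged 2.62 ± 0.484 CPM in Hdc-GFPhi cells and 3.10 ± 0.482 CPM in Hdc-GFPlo cells, Poll averaged 49.1 CPM in Hdc-GFPhi cells and 48.6 CPM in Hdc-GFPlo cells, and Polb averaged 42.7 CPM in Hdc-GFPhi cells and 44.2 CPM in Hdc-GFPlo cells. Of this family of 4, 1 was called, against 0.947% of all tested genes, and it is Dntt, the member already reported above.

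Break sensing and homologous recombination showed no called gene either, and 0.947% of all tested genes were called. At that share, lists of this size would mostly hold none, so a count of 0 does not set these genes apart. Of 13 tested break sensing and end protection genes, 0 were called (median 0.07, range -0.07 to 0.27), with H2afx, the histone variant phosphorylated at breaks, at 197 CPM in Hdc-GFPhi cells and 164 CPM in Hdc-GFPlo cells. The kinase Atm, which responds to RAG-induced breaks, averaged 112 CPM in Hdc-GFPhi cells and 117 CPM in Hdc-GFPlo cells. Of 15 tested homologous recombination genes, 0 were called (median 0.06, range -0.17 to 0.28), with Brca2, a mediator of strand exchange, at 121 CPM in Hdc-GFPhi cells and 103 CPM in Hdc-GFPlo cells. Of 9 cofactor and chromatin genes, 0 were called (median -0.13, range -0.30 to 0.07). Hmgb1, a DNA-bending protein that aids RAG binding and cutting, had the lowest value, with 197 ± 31.9 CPM in Hdc-GFPhi cells and 242 ± 33.6 CPM in Hdc-GFPlo cells (SD, n = 4 each; edgeR adjusted p 0.430). Of these 52 genes, 1 (Hmgb1) had an unadjusted p of 0.05 or less in edgeR's test, against 10.9% of all tested genes. With the DESeq2 Wald test or limma voom, 0 of the 52 were called.

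**Figure D4:**
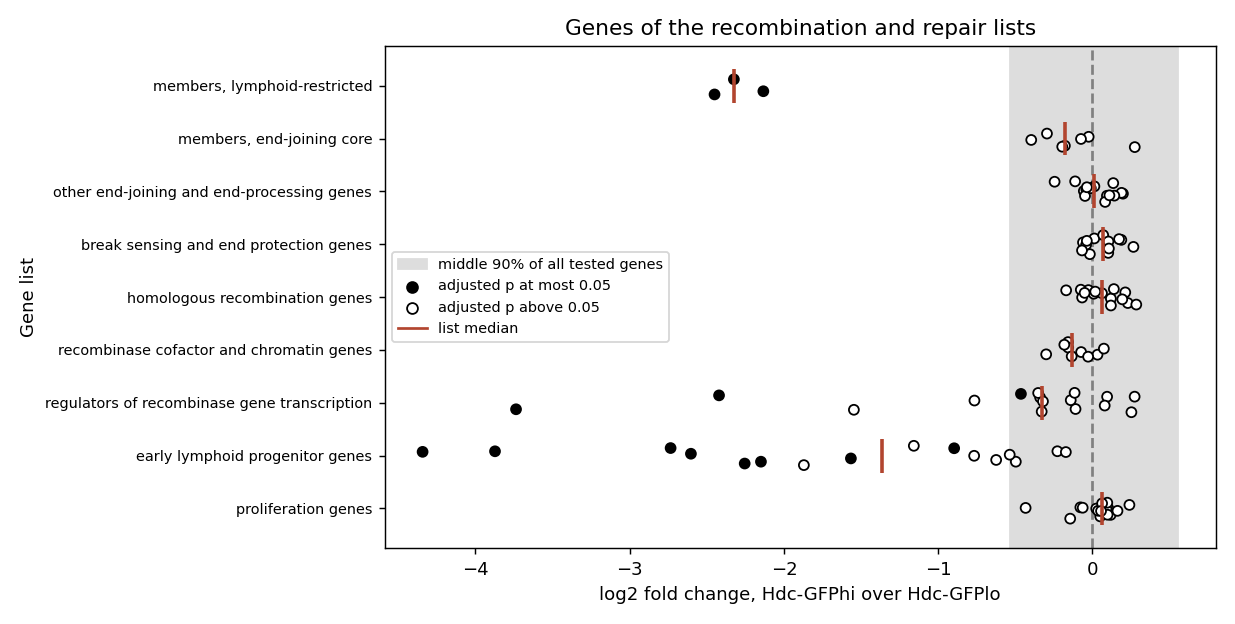
Log2 fold change (Hdc-GFPhi over Hdc-GFPlo) of every tested gene in the lists, with filled points for an adjusted p of at most 0.05, a line at each list's median and a grey band for the middle 90% of all tested genes. The repair lists lie within the band, and the filled points sit among the lymphoid-restricted members, the transcription regulators and the early lymphoid genes.

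Of 16 tested regulators of RAG gene transcription, 3 were called lower and 0 higher, against 0.707% and 0.241% of all tested genes, and 12 of the 16 were below 0 (median -0.33). Ebf1, a factor that starts the B cell programme, averaged 6.68 ± 2.55 CPM in Hdc-GFPhi cells and 35.7 ± 18.7 CPM in Hdc-GFPlo cells (SD, n = 4 each), and fell by 2.42 ± 0.35 (SE) on the log2 scale (edgeR adjusted p 0.00533). Lef1, an HMG-box factor of early lymphocytes, had 33, 30, 22 and 0 counts in Hdc-GFPhi replicates 1 to 4, against 566, 125, 125 and 236 counts in Hdc-GFPlo replicates 1 to 4, and fell by 3.74 ± 0.67 (edgeR adjusted p 0.0203). Its lowest and highest libraries were the same as those of Rag1. Ikzf1, the Ikaros factor needed for lymphoid development, averaged 180 ± 8.10 CPM in Hdc-GFPhi cells and 248 ± 17.1 CPM in Hdc-GFPlo cells, and fell by 0.46 ± 0.09 (edgeR adjusted p 0.0311). The call of Ikzf1 was lost without any single library except Hdc-GFPlo replicate 3 (adjusted p up to 0.149, without Hdc-GFPlo replicate 1). That of Lef1 was lost without Hdc-GFPhi replicate 2 or 3, without Hdc-GFPlo replicate 1, 3 or 4, without the filter on low counts and with limma voom (adjusted p up to 0.106), and that of Ebf1 with limma voom (adjusted p 0.0508).

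Other regulators of the list did not pass the test. Ets1 averaged 77.0 ± 16.3 CPM in Hdc-GFPhi cells and 131 ± 24.5 CPM in Hdc-GFPlo cells (log2 fold change -0.76 ± 0.17, edgeR adjusted p 0.0568, and past the threshold in 8 of 20 alternatives), and Bcl11a, needed for early lymphoid cells, averaged 187 CPM in Hdc-GFPhi cells and 239 CPM in Hdc-GFPlo cells (edgeR adjusted p 0.131). Foxp1, a forkhead factor known to act on the RAG enhancer in mouse B cell precursors, averaged 265 CPM in Hdc-GFPhi cells and 331 CPM in Hdc-GFPlo cells (edgeR adjusted p 0.204). Pax5, which commits cells to the B lineage, was near the limit of detection with 0 to 12 counts in Hdc-GFPhi libraries and 13 to 31 counts in Hdc-GFPlo libraries (edgeR adjusted p 0.409). Foxo1, an activator of both RAG genes in mouse B cell precursors, averaged 37.1 ± 5.34 CPM in Hdc-GFPhi cells and 46.9 ± 8.09 CPM in Hdc-GFPlo cells (edgeR adjusted p 0.429).

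Over the 8 libraries, Rag2 and Dntt had patterns close to each other. Likeness was measured as the root mean square difference between log2 CPM values after centring each gene on its own mean, over 11512 genes with a mean count of at least 50, and it is given as a description. Dntt was the second nearest gene to Rag2 and Rag2 was the nearest to Dntt (0.25 log2 units in each case, against a median over all candidate genes of 1.13 for Rag2 and 1.24 for Dntt). The nearest to Rag2 was Cmah (0.23), which encodes an enzyme of sialic acid synthesis, followed after Dntt by Ptger2 (0.29), Cd79a (0.33), a subunit of the B cell receptor complex, and Bfsp2 (0.34). The next nearest to Dntt were Cmah (0.25), Arpp21 (0.28), Mrvi1 (0.31) and Il7r (0.34), the interleukin-7 receptor. The measure includes the difference between the groups, so closeness partly restates a similar fold change. All of these genes were called lower, which follows largely from how they were selected.

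Over the 8 libraries Rag1 stood at 0.82 from Rag2 and 0.81 from Dntt, which ranked 34th and 33rd among its nearest genes, and these distances rested on Hdc-GFPhi replicate 4. Over the other 7 libraries, a setting chosen after the values were seen, Rag1 stood at 0.30 from Rag2 and 0.34 from Dntt, ranked 5th and 10th, while Rag2 and Dntt stood at 0.26 from each other. Over all 8 its nearest were Ccdc135 (0.25), Bcat1 (0.38), 2010001M09Rik (0.51), Colq (0.52) and Vpreb3 (0.53), a protein of the pre-B cell receptor pathway. These share with Rag1 a low value in Hdc-GFPhi replicate 4, where Ccdc135 had 31 counts, against 143 to 164 in the other Hdc-GFPhi libraries and 461 to 956 in Hdc-GFPlo libraries. Of these 5, Vpreb3 was not called (log2 fold change -1.87, edgeR adjusted p 0.0748). Over the other 7 libraries the nearest genes to Rag1 were Cmah (0.24), Ccdc135 (0.24), Bcat1 (0.27), Cd79a (0.28) and Rag2 (0.30), so 2 of the 5 were nearest in both, and 2010001M09Rik, Colq and Vpreb3 ranked 27th, 43rd and 26th.

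**Figure D5:**
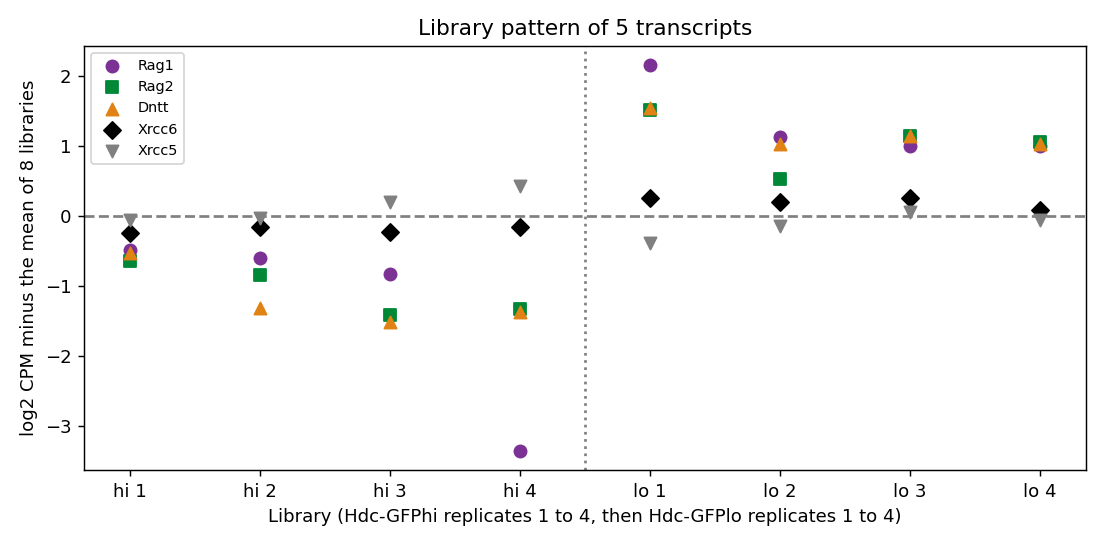
Log2 CPM of 5 transcripts minus each one's own mean over the 8 libraries, with Hdc-GFPhi replicates 1 to 4 on the left and Hdc-GFPlo replicates 1 to 4 on the right. Rag2 and Dntt run close together, Rag1 drops furthest in Hdc-GFPhi replicate 4 and peaks in Hdc-GFPlo replicate 1, and Xrcc6 and Xrcc5 stay within 0.5 of 0.

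Rag1 and Rag2 lie next to each other in the mouse genome and are transcribed towards each other, with the gene B230118H07Rik spanning between them (GENCODE M21, GRCm38). It shares 80 exon bases with Rag1 on the same strand and 208 exon bases with Rag2 on the opposite strand. B230118H07Rik averaged 28.0 ± 5.31 CPM in Hdc-GFPhi cells and 35.9 ± 8.04 CPM in Hdc-GFPlo cells (SD, n = 4 each) and was not called (log2 fold change -0.36 ± 0.18, edgeR adjusted p 0.510). The sources used here give no strand setting, and reads in the shared bases cannot be told apart. Traf6, the signalling adaptor on the other side of Rag1, averaged 98.8 ± 9.98 CPM in Hdc-GFPhi cells and 95.4 ± 15.1 CPM in Hdc-GFPlo cells (edgeR adjusted p 0.937), while Lrrc4c beyond Rag2 had 0 counts in all libraries.

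Dntt lies beside Blnk, the B-cell linker adaptor of pre-B cell receptor signalling, which also fell. Blnk had 132, 317, 150 and 95 counts in Hdc-GFPhi replicates 1 to 4, against 1718, 621, 806 and 670 counts in Hdc-GFPlo replicates 1 to 4, with no overlap between the groups. It fell by 2.60 ± 0.37 (SE) on the log2 scale (edgeR adjusted p 0.00507). Opalin on the other side of Dntt had 0 counts in all libraries. Among the end-joining members, Xrcc6 shares 344 exon bases with the opposite-strand gene Desi1 (in the table as Pppde2), which averaged 63.1 ± 1.95 CPM in Hdc-GFPhi cells and 75.6 ± 10.8 CPM in Hdc-GFPlo cells (edgeR adjusted p 0.440). Xrcc4 shares 112 with Tmem167 and Dclre1c shares 357 with Suv39h2, neither of which was called (edgeR adjusted p 0.532 and 0.930).

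Of 16 tested early lymphoid progenitor genes, 8 were called lower and 0 higher, against 0.707% and 0.241% of all tested genes, and all 16 were below 0 (median -1.36). Il7r averaged 4.87 CPM in Hdc-GFPhi cells and 32.4 CPM in Hdc-GFPlo cells, and Vpreb1, part of the surrogate light chain, averaged 1.79 CPM in Hdc-GFPhi cells and 26.2 CPM in Hdc-GFPlo cells. Satb1, a chromatin organiser of lymphoid progenitors, averaged 191 CPM in Hdc-GFPhi cells and 356 CPM in Hdc-GFPlo cells. The list was chosen with earlier results of these libraries known, so its count is not independent of them.

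Markers of other cell types were measured in the same libraries, and their part in the differences of Rag1, Rag2 and Dntt was not tested. With 0.947% of all tested genes called, a count of 0 does not set apart lists as short as those below. Of 8 mature B cell and plasma cell markers 0 were called, but their summed level was 34.8 to 71.6 CPM in Hdc-GFPhi libraries and 158 to 261 CPM in Hdc-GFPlo libraries. Igj, the J chain gene of antibody-secreting cells, had 9 to 13 counts in Hdc-GFPhi libraries, against 18, 1604, 3313 and 3036 counts in Hdc-GFPlo replicates 1 to 4. The Hdc-GFPlo library with the highest Rag1, Rag2 and Dntt was thus the one with the fewest Igj counts. Of 9 T and NK cell markers 2 passed the filter and 0 were called. Cd8a had 0 counts in all libraries, Cd3e had 0 counts in Hdc-GFPhi libraries and 7 in Hdc-GFPlo libraries together, and the summed level was 16.4 to 29.0 CPM in Hdc-GFPhi libraries and 20.4 to 31.8 CPM in Hdc-GFPlo libraries.

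Granulocyte, monocyte and dendritic cell markers (9 tested, 0 called, 8 below 0) summed to 852 to 1145 CPM in Hdc-GFPhi libraries and 1326 to 1561 CPM in Hdc-GFPlo libraries. Erythroid, megakaryocyte and mast cell markers (5 tested, 0 called) summed to 111 to 135 CPM in Hdc-GFPhi libraries and 87.4 to 105 CPM in Hdc-GFPlo libraries, with Hba-a1 at 0 in all. Stromal and endothelial markers (3 tested, 0 called) summed to 112 to 154 CPM in Hdc-GFPhi libraries and 126 to 173 CPM in Hdc-GFPlo libraries. Proliferation genes had 0 of 16 called, a median of 0.06 and overlapping summed levels of 5024 to 6533 CPM in Hdc-GFPhi libraries and 4746 to 6226 CPM in Hdc-GFPlo libraries.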

How the data were processed

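RNA sequencing of 8 libraries was analysed from 1 table of read counts per gene. Per the labels' protocols, cDNA from 2000 sorted cells per library was amplified with the SMARTer low-input chemistry before Nextera XT library construction. As background, these kits do not mark strand and add no molecular identifiers. The submitters' processing notes name Bowtie2, TopHat2 2.04, HTSeq 0.6.1 and bcl2fastq 1.8.4, and mm9 as the build. The authors deposited whole-number counts that are not normalized. The sources used here state neither the gene annotation nor the strand setting nor how reads with several matches were treated.

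Genes were filtered with filterByExpr and scaled by TMM, and Hdc-GFPhi was tested against Hdc-GFPlo with edgeR 4.0.16 (glmQLFit with robust estimation, glmQLFTest) under R 4.3.3 without covariates; p-values were adjusted by Benjamini-Hochberg over all 13300 tested genes, at a threshold of 0.05. Errors and 95% intervals of log2 fold changes come from that fit. The biological coefficient of variation was 19.9%. The fit was tested on simulated counts with 50 changed genes of each size. It called 14% of log2 changes of 0.5 in the right direction, 74% of 1, 86% of 2 and 98% of 4. A gene that was not called can thus still differ by a small amount. Ratios used log2 CPM with a prior count of 2 and an exact two-sided permutation test over 70 assignments, adjusted over 8 ratios. The chi-square per degree of freedom between libraries of a group was at least 13.3, so none was a copy or plain re-sequencing of another. Separate libraries from the same animal cannot be recognised this way. The chi-square per degree of freedom was 49.8 to 55.4 in pairs with Hdc-GFPlo replicate 3, so this library stood apart from its group. It was 13.3 to 18.2 in the other Hdc-GFPlo pairs and 18.5 to 38.2 in Hdc-GFPhi pairs. Intervals on counts cover counting error only.

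The members and gene lists were chosen with earlier results of these data known. Named genes are all members, of each list the called genes and up to 4 others by smallest p, the 5 genes most like each of Rag1, Rag2 and Dntt, and their neighbours; Atm, Cd3e, Cd8a, Hba-a1 and genes named for their role were added after their values were seen, and genes that the rule names but that do not appear are not used here. A few table symbols were older ones (Pppde2 for Desi1). Exon lengths and neighbours come from GENCODE M21 and upstream sequences from RefSeq (both GRCm38), and no coordinates of the mm9 counts are printed. Antigen receptor locus genes were not analysed here. The alternatives were the DESeq2 1.42.0 Wald test, limma 3.58.1 voom with quality weights, upper-quartile and DESeq2 size factors, scaling by totals alone, 2 other count filters, non-robust dispersion, a replicate block, replicates 1 and 2 against 3 and 4 as a covariate, leaving out each library, and leaving out 2 together.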

Additional observations from a re-analysis of the deposited data

Results flagged for a closer look

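In 9 of 80 sets of 4 libraries examined (a gene or ratio within a group), 1 library lay far from the other 3 by Dixon's criterion, which chance meets in about 1 of 20 such sets. Rag1 had 14.3 CPM in Hdc-GFPlo replicate 1, against 6.37 to 7.01 CPM in the other Hdc-GFPlo libraries. Dntt had 323 CPM in Hdc-GFPhi replicate 1, against 163 to 187 CPM in the other Hdc-GFPhi libraries. The log2 ratio of Rag2 to Rag1 was 4.37 in Hdc-GFPhi replicate 4, against 1.77 to 2.18 in the rest of its group. That of Dntt to Polm was 7.29 in Hdc-GFPhi replicate 1, against 5.86 to 6.02, and that of Dntt to Rag2 was 5.31 in Hdc-GFPlo replicate 2, against 4.78 to 4.85. Ikzf1 had 192 CPM in Hdc-GFPhi replicate 3 (others 175 to 177 CPM) and Ccdc135 had 1.38 CPM in Hdc-GFPhi replicate 4 (others 6.37 to 7.31 CPM). Polm had 2.38 CPM in Hdc-GFPlo replicate 3 (others 3.33 to 3.36 CPM) and Cmah had 42.5 CPM in Hdc-GFPlo replicate 1 (others 27.2 to 28.0 CPM).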

How the results depend on the processing

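Of 20 alternatives to the test across genes, all kept Rag2 and Dntt lower and called, with log2 fold changes of -2.28 to -1.87 and -2.59 to -2.11. The number of members called lower ran from 2 to 4, and the number called higher was 0 throughout. Rag1 kept its direction, but its call was lost in 7 of the 8 fits that left out 1 library (log2 fold change -2.67 to -2.08 over the 8, adjusted p 0.0169 to 0.172). The fit that leaves out the libraries with the lowest and highest Rag1 together was chosen after seeing the data. The number of end-joining members called was 1 (Xrcc6) with the DESeq2 Wald test, with limma voom and with the covariate for replicates 1 and 2 against 3 and 4, and 0 in all other fits. The log2 fold change of Xrcc6 stayed between -0.43 and -0.36, with an adjusted p of up to 0.362. Genes of the repair and regulator lists called lower numbered 3 in the main test, 5 with DESeq2 and 1 to 3 when 1 library was left out; 0 were called higher.

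Small differences changed sign: Xrcc4 was 0.0487 with limma voom and -0.19 to 0.0817 with 1 library left out, Prkdc was -0.21 to 0.0502 and Lig4 was -0.36 to 0.0487. Lig4 was 0.00661 when Hdc-GFPhi replicate 4 was left out along with Hdc-GFPlo replicate 3, and 0.24 when it was left out along with Hdc-GFPlo replicate 1. With 1 library left out the ratio differences ran from -0.0714 to 0.80 for Rag2/Rag1, -0.35 to 0.55 for Dntt/Rag1 and -0.36 to 0.22 for Lig4/Xrcc4. No ratio passed in any setting, but since at least 5 of the 8 would have to reach the smallest p for any to pass, this says nothing about stability. The causes were not tested. Over all tested genes, the counts called were 94 lower and 32 higher in the main test and 241 lower and 163 higher with DESeq2, and they ran from 39 to 241 lower and from 4 to 163 higher over all alternatives.

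Same-numbered libraries of the groups correlated in their deviations from the group means by 0.257, 0.347, 0.0755 and 0.100 for replicates 1 to 4, and with libraries of other numbers by a mean of -0.0729, -0.109, -0.0223 and -0.0519. Deviations from a group mean cancel within the group, so the negative values largely follow from the positive ones and are no separate evidence. Of the 8 libraries, 4 correlated best with their own number; no label says what a number marks, and whether the numbers pair the samples was not settled. With the replicate block, 140 genes were called lower and 84 higher, 3 members were called lower, Rag1 at -2.56 with an edgeR adjusted p of 0.0116, and Xrcc6 had an adjusted p of 0.0739. Counts of 5 to 50 for Rag1 in Hdc-GFPhi libraries limit the precision of its fold change.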
